A study of Homo sapiens with 30 samples.

Results

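The mRNAs of the nuclear-encoded subunits of the respiratory chain and of ATP synthase were followed through the iCLIP peak lists of LARP6 and its deletion mutants. The genes were taken by symbol alone: protein-coding genes whose symbols start with NDUFA, NDUFB, NDUFC, NDUFS or NDUFV and a digit, NDUFAB1, and those starting with UQCR, COX4 to COX8, ATP5F, ATP5M or ATP5P. The rule gave 85 of the 20046 protein-coding genes of the annotation. By symbol, 40 were placed in complex I, 9 in complex III, 17 in complex IV and 19 in ATP synthase (complex V). NDUFA4 and its relative NDUFA4L2 are thus counted with complex I here, although NDUFA4 is known as a subunit of cytochrome c oxidase, and 2 of the 85 are read-through genes (ATP5MF-PTCD1 and NDUFC2-KCTD14). No binding value was used to choose them.

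The respiratory chain sits in the inner mitochondrial membrane. Complex I (NADH dehydrogenase), complex III (cytochrome bc1) and complex IV (cytochrome c oxidase) pass electrons to oxygen and pump protons, and ATP synthase uses the proton gradient to make ATP in its F1 head. A small set of subunits is encoded by the mitochondrial genome, and the remainder, studied here, are encoded in the nucleus, translated in the cytosol or at the mitochondrial surface, and imported. LARP6, one of the La-related proteins, is best known for holding a stem-loop in the 5'UTR of type I collagen mRNAs and has been linked to the localisation of mRNAs that encode the translation machinery. The question asked here was which of the subunit mRNAs, many of them short, it contacted, where along the mRNA, and in which form of the protein.

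All samples were U-87 MG, an established human glioblastoma cell line, and per the labels all received 60 ng/mL doxycycline for 24 h. In 5 stable lines doxycycline induced a myc-tagged, codon-optimised LARP6 from a lentiviral vector: the full-length protein (FL), or LARP6 without the N-terminal region (ΔNTR), without the La-module that holds the folded RNA-binding domains (ΔLa-module), without the whole N-terminal domain (ΔNTD) or without the C-terminal region (ΔCTR). Parental cells carried no variant, and all 6 lines kept their endogenous LARP6. The iCLIP experiment maps positions of ultraviolet crosslinks to RNA bound by the myc-tagged protein and had 3 replicates for each of these. The authors merged the replicates into 1 peak list per variant and then subtracted parental peaks. Total RNA of each line was sequenced in 1 paired-end library (the input). No spread between replicates can therefore be given for any value here, and no difference was tested against one. Intervals are 95% Wilson intervals that cover counting error only and take the peaks of 1 mRNA as independent.

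The FL list held 14334 peaks, the ΔNTR list 17180 and the ΔCTR list 15870, against 636 for ΔLa-module and 291 for ΔNTD. The score of a peak is the authors' summed score over replicates, with a minimum of 3, and was not scaled to depth. The 6 input libraries held 25027075 to 28692476 counts in genes. Input levels are given as CPM (counts scaled to the library total and to TMM factors). The line's markers were present (VIM, 7011 to 8089 CPM; EGFR, 322 to 396 CPM), and CDKN2A and CDKN2B had 0 counts in all 6 libraries. Of markers of other cell types, PTPRC (leukocytes) had at most 2 counts, RBFOX3 (neurons) at most 4 and GFAP (astrocytes) at most 6. MBP (oligodendrocytes) had 50 to 104 counts (1.75 to 3.86 CPM) and PECAM1 (endothelium) 28 to 65 (0.982 to 2.41 CPM). Counts in the LARP6 gene (51.6 to 75.8 CPM, 53.3 CPM in parental cells) do not report on the induced variants, which are codon-optimised.

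Of the 85 genes, 63 had a mean input of at least 10 CPM, and all peaks lay in these. Of the 22 genes under 10 CPM, 12 were under 1 CPM. Part of this was low expression of tissue-restricted isoforms: COX6A2, COX6B2 and COX8C had 0 counts in all 6 libraries, COX4I2, COX7A1 and COX7B2 had 1 to 3 counts in all libraries together, and NDUFA4L2 had 7 to 18 counts per library. UQCRHL, a single-exon relative of UQCRH, had 126 to 148 counts per library. Others are subunits that every respiring cell uses, such as NDUFB8 (1.36 CPM), NDUFA13 (0.608 CPM) and NDUFA7 (0.771 CPM). In the canonical mRNAs of NDUFB8, NDUFA13 and NDUFA7, 72%, 83.9% and 77.9% of bases were shared with another protein-coding gene on the same strand, and reads ambiguous between genes are in no gene's count. Bases so shared with a protein-coding gene were present in 12 of the 22 genes under 10 CPM and in 3 of the 63 others. Over the exons of all transcripts and genes of any type, further genes shared bases. Examples are COX8A (35.4%) and NDUFV2 (28.4%), both under 10 CPM, and NDUFS3 (16.0%) and ATP5MK (15.4%), both above it. The input of genes with shared bases is thus a lower limit on their level, and the 12 had no peak in any list.

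In each list a minority of these mRNAs held a peak. FL had a peak in 24 of the 85 genes (28.2%), ΔNTR in 30 (35.3%) and ΔCTR in 26 (30.6%). Among the 63 genes of at least 10 CPM the shares were 38.1%, 47.6% and 41.3%. Among all 9096 protein-coding genes at that level the corresponding values were 47.8%, 49.0% and 50.8%, so the subunit genes lay below the background in FL and ΔCTR and near it in ΔNTR. In ΔLa-module and ΔNTD no subunit gene held a peak, where 4.57% and 2.44% of genes at that level did. With background shares this small, a count of 0 among 63 genes is no result about the set.

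A peak was present in any of FL, ΔNTR and ΔCTR in 44 genes and in all 3 lists in 13, all of them among the 63 of at least 10 CPM. Of all 9096 genes at that level, 6355 had a peak in any of these lists and 2716 in all 3. The share with a peak in any list was thus near the background, and the share with one in all 3 was lower. The length of the mRNA bore on the comparison. Of the 38 subunit genes with a canonical mRNA under 1000 nt, 36.8% held an FL peak, against 36.2% of all genes of that length and at least 10 CPM. Of the 25 longer ones 40.0% did, against 48.4%. In ΔNTR the shares were 39.5% against 40.4% for short mRNAs and 60.0% against 49.4% for longer ones, and in ΔCTR 39.5% against 42.1% and 44% against 51.2%. These shares pool input levels. Of short mRNAs at 10 to 50 CPM, 33.3% of the set held an FL peak against 19.5% of all genes, and at 50 to 200 CPM 41.2% against 47.4%. Of longer mRNAs at 50 to 200 CPM, 33.3% (6 of 18) did against 64.7%, with 61.1% against 65.9% in ΔNTR and 38.9% against 69.7% in ΔCTR. At 200 CPM or more all 4 subunit genes, all of them with longer mRNAs, held a peak in each of the 3 lists, as did 93.2% to 93.8% of all genes of that level and length. The set was thus above the background in one stratum and below it in others, with few genes in each.

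Binding was concentrated in the catalytic head of ATP synthase. ATP5F1B, the β subunit that carries the catalytic sites, had a summed score of 119 in FL, 109 in ΔNTR and 131 in ΔCTR. ATP5F1A, the α subunit that alternates with it in the head, had 59, 61 and 92. Both scores were 0 in ΔLa-module and ΔNTD. Of the score of all 85 genes the pair held 53.0% (FL), 45.2% (ΔNTR) and 54.0% (ΔCTR). They were also the most abundant subunit mRNAs by counts, with ATP5F1B at 647 to 702 CPM and ATP5F1A at 320 to 380 CPM in the 6 libraries.

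**Figure D1:**
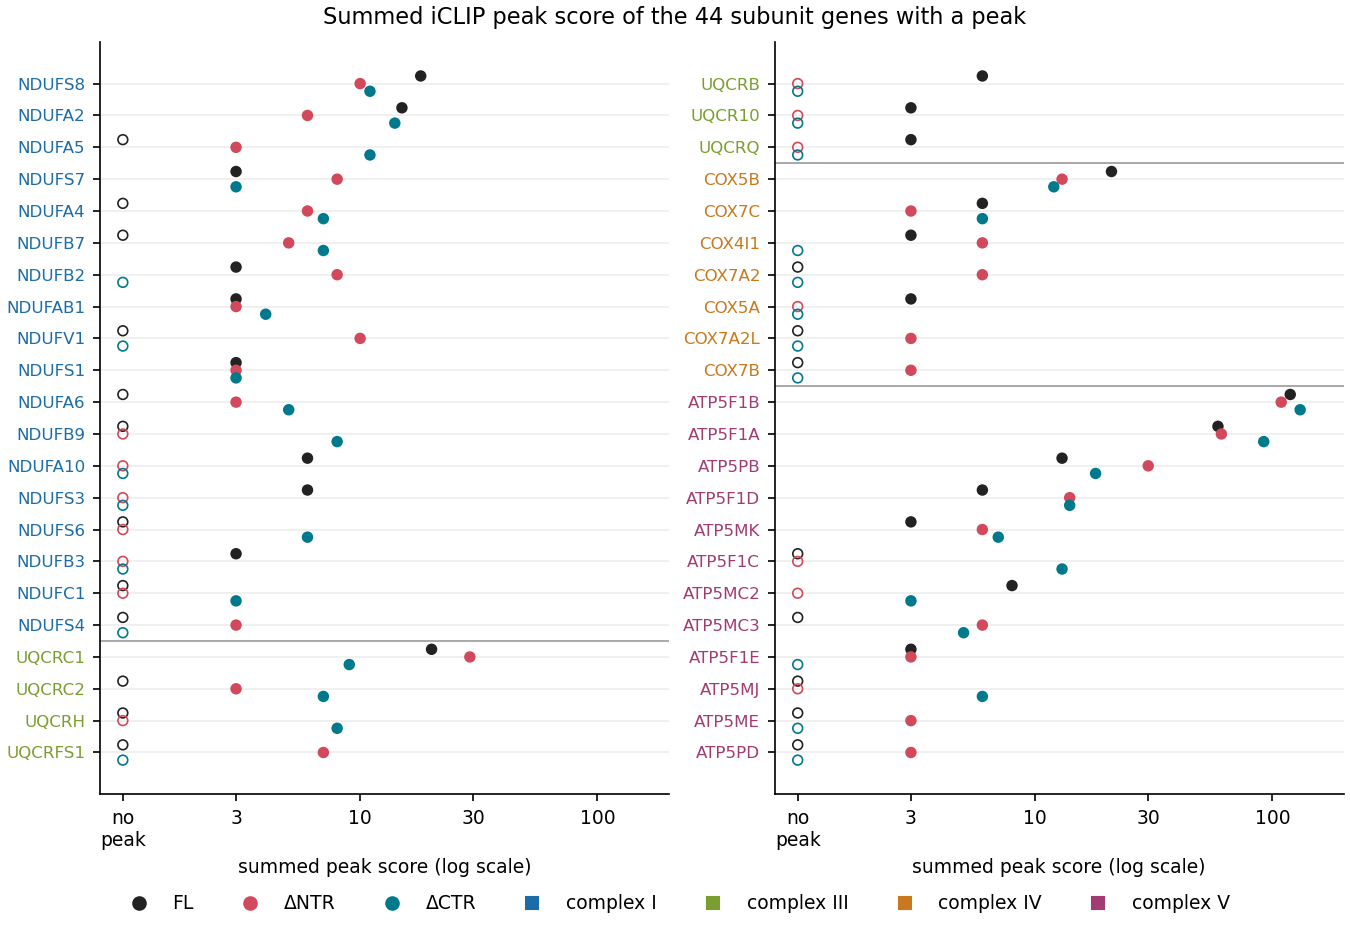
Summed peak score (log axis; open circles at the left stand for no peak) of each of the 44 subunit genes with a peak, for FL (black), ΔNTR (red) and ΔCTR (teal); gene names are coloured by complex. ATP5F1B and ATP5F1A lie at 59 or more in all 3 lists, and most other genes lie at 20 or below.

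The whole set held 336 score units in 48 FL peaks, 376 in 68 ΔNTR peaks and 413 in 56 ΔCTR peaks. This was 0.327%, 0.404% and 0.348% of the score of each list, while the genes held 0.541% of the FL input counts. Without ATP5F1A and ATP5F1B, 0.154% of the FL score stood against 0.436% of the counts. Of the FL peaks 60.4% (46.3 to 73.0%) had the minimum score of 3, as did 53.7% of the whole FL list. The share at 3 was 60.3% among the ΔNTR peaks and 48.2% among the ΔCTR peaks, so a large part of the peaks rests on the lowest score a list can hold.

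For 7 genes with high summed scores, the 30 nt around the centre of the highest FL peak follow, for direct comparison of the bound stretches. They are from the reference genome (GRCh38, hg38). Further FL peaks of ATP5F1B (39) and ATP5F1A (18) scored higher than several of these and are not shown. Runs of 5 or more pyrimidines are in capitals, since such runs were searched for in the windows of all peaks. All are given 5' to 3' on the strand of the gene, and the window of COX5B is printed with the start codons further on.
ATP5F1B, chr12:56644863-56644892, minus strand, CDS: tactggattctggtgcaccaatcaaaattc
ATP5F1A, chr18:46088133-46088162, minus strand, CDS: ttggtcaaaagagatccactgttgcccagt
ATP5PB, chr1:111461025-111461054, plus strand, 3'UTR: acagttgactgactaaatggaaactagtct
NDUFA2, chr5:140647547-140647576, minus strand, CDS: cggccgcagcaagtcgaggagtcggggcaa
NDUFS8, chr11:68033172-68033201, plus strand, CDS: gaagggcccgctgagCCCTCgCTTCCgtgg
UQCRC1, chr3:48609178-48609207, minus strand, CDS: cggcctgcgtgtggCCTCCgagcagTCCTC
ATP5F1D, chr19:1242540-1242569, plus strand, CDS: acgctgcaggtcctgcggccggggctggtc

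The 4 highest of these FL peaks, in ATP5F1B (53), ATP5F1A (21), COX5B (15) and ATP5PB (13), had windows without a pyrimidine run and with a G+C content of 40.0%, 46.7%, 53.3% and 36.7%. Among the others shown, the peaks of NDUFS8 (12) and UQCRC1 (7) held such runs, and those of NDUFA2 (8) and ATP5F1D (6) did not. Over all 48 FL peaks of the set, 17 windows (35.4%, 23.4 to 49.6%) held a run of 5 or more C or T, against 54.2% of the 13870 FL peaks in protein-coding genes. Among peaks in CDS alone the shares were 29.3% (12 of 41, 17.6 to 44.5%) and 46.7%. In ΔNTR the shares over all peaks were 50.0% (38.4 to 61.6%) for the set and 54.7% for all genes, and in ΔCTR 46.4% (34.0 to 59.3%) and 52.9%. Only in FL did the interval of the set leave out the share of all genes, and the difference between lists was not tested.

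In ATP5F1B the contacts formed 1 dominant site inside the CDS. It spanned chr12:56644830-56644934, 408 nt from the 5' end of the canonical mRNA of 1759 nt, and held a score of 95 in FL, 54 in ΔNTR and 94 in ΔCTR. A second site lay 12 nt past the last coding base, from which distances into the 3'UTR are counted here, the stop codon included (chr12:56638287-56638338) with scores of 11, 17 and 6. Another, at 508 nt, had 3, 7 and 8. The largest single peaks of the whole set, of 53, 54 and 94, all belonged to the dominant site.

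In ATP5F1A, 4 sites were present in all 3 lists, in 2 pairs within the CDS. The first pair (chr18:46088159-46088199 and chr18:46088122-46088157, 789 and 832 nt from the 5' end) had scores of 18, 17 and 34, and of 21, 11 and 23, in FL, ΔNTR and ΔCTR. The second pair lay at 1337 and 1362 nt, with 8, 8 and 21, and with 8, 3 and 8. At every one of these sites except the last, where FL and ΔCTR were equal, the ΔCTR score was the highest. The ΔCTR list also had the highest summed score of the lists, 118751 against 102788 for FL and 92958 for ΔNTR. Single peaks near the 5' end of this mRNA were in the ΔNTR list alone, the first of them 10 nt from the start with a score of 4.

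**Figure D2:**
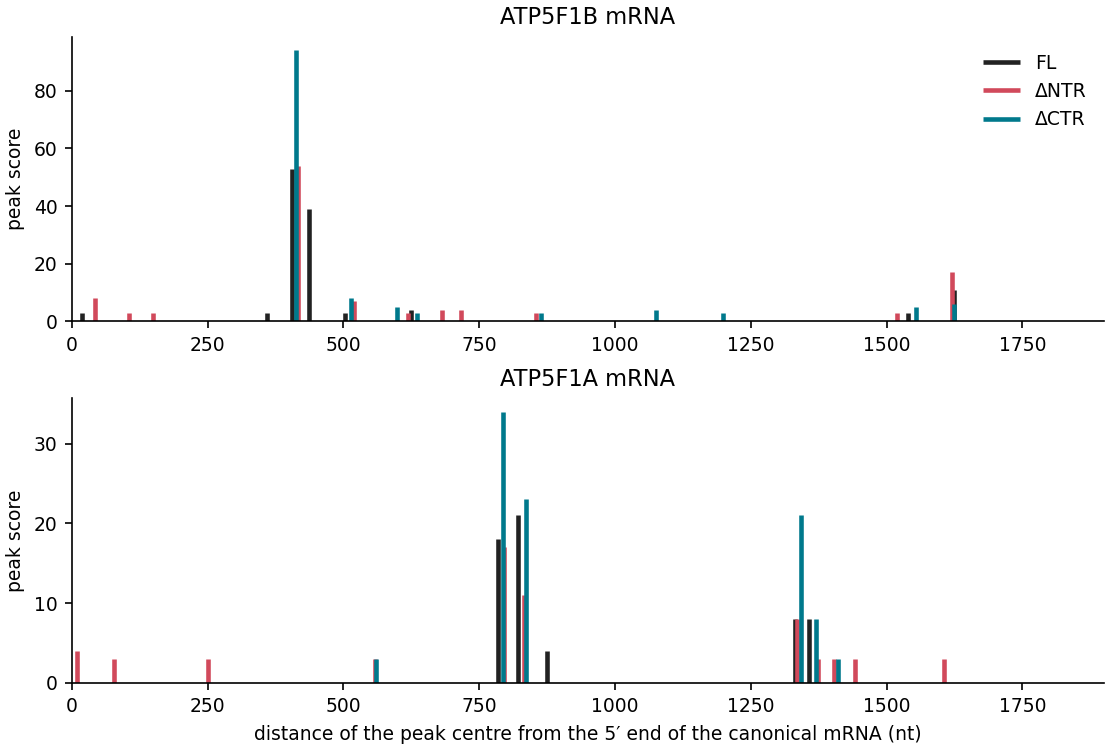
Peak score against the distance of the peak centre from the 5' end of the canonical mRNA (nt) for ATP5F1B and ATP5F1A, 1 line per peak, drawn 5 nt to the left for FL (black) and 5 nt to the right for ΔCTR (teal) with ΔNTR (red) in place. The same stretches carry the highest peaks in the 3 lists, around 408 nt in ATP5F1B and around 789 and 1337 nt in ATP5F1A.

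The other subunits of the F1 head had fewer contacts. ATP5F1D, the δ subunit of the central stalk, had scores of 6 in FL, 14 in ΔNTR and 14 in ΔCTR, from neighbouring sites in its CDS. ATP5F1C, the γ subunit that forms the rotating shaft, had 0, 0 and 13, with 5 at a CDS site and 5 at a site 55 nt past the last coding base. ATP5F1E, the ε subunit, had 3, 3 and 0. In each list 4 of these 5 genes held a peak. Among the 4 genes of the peripheral stalk, which holds the head still, ATP5PB had 13, 30 and 18, mostly at 1 site 44 nt past the last coding base (chr1:111461005-111461066; 13, 24 and 15), and ATP5PD had a peak of 3 in ΔNTR alone. Among the 3 genes of the proton-carrying c ring, ATP5MC2 had 8, 0 and 3 and ATP5MC3 had 0, 6 and 5. Of the 7 small membrane subunits, ATP5MK had 3, 6 and 7, ATP5MJ 0, 0 and 6, and ATP5ME 0, 3 and 0.

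In complex I the 7 core genes, whose products carry the electron-transfer cofactors, held peaks at a higher share than the 33 accessory genes, a difference that was not tested. Of the core genes 4, 4 and 3 had a peak in FL, ΔNTR and ΔCTR, and of the accessory genes 5, 8 and 9. At 10 CPM or more the shares were 66.7%, 66.7% and 50% of 6 core genes. Of 26 accessory genes they were 19.2%, 30.8% and 34.6%, against 47.8%, 49.0% and 50.8% of all genes at that level. The core and accessory genes were not matched for input level or mRNA length, and 6 core genes are few. NDUFS8, an iron-sulfur subunit, had scores of 18, 10 and 11, NDUFS7 had 3, 8 and 3, NDUFS1 had 3 in each list, and NDUFV1, the flavin-carrying subunit that takes electrons from NADH, had 0, 10 and 0. Among the accessory genes NDUFA2 had 15, 6 and 14, all at 1 CDS site 98 nt from the 5' end (chr5:140647517-140647578), and it had the highest FL score per 1000 input counts of the set, 20.5. NDUFA5 (0, 3 and 11), NDUFB7 (0, 5 and 7), NDUFB2 (3, 8 and 0) and NDUFAB1 (3, 3 and 4), the acyl carrier protein, followed. NDUFA4, which is in this group by its symbol alone, had 0, 6 and 7. At these low scores a gene often held a peak in 1 list and none in another.

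In complex III, UQCRC1, a core protein of the matrix side, had 20, 29 and 9, spread over many small sites, and UQCRC2, its partner, had 0, 3 and 7. In complex IV, COX5B, a subunit on the matrix side, had 21, 13 and 12, mostly in 2 sites that were present in all 3 lists, with 15, 4 and 6 at its start codon and 6, 9 and 3 at 46 nt before the last coding base. COX7C had 6, 3 and 6. COX4I1, the ubiquitous form of a regulatory subunit, had 3, 6 and 0. Per 1000 FL input counts COX5B had a score of 13.1, NDUFS8 8.38, ATP5F1B 6.32 and ATP5F1A 5.64. The median of the 24 subunit genes with a score was 2.58, against 3.54 for all protein-coding genes with one.

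Several abundant subunit mRNAs had no peak in any of the 5 lists. In all, 19 of the 63 genes of at least 10 CPM had none. As given above, the share with a peak in any of FL, ΔNTR and ΔCTR was near the background. By input per exon length (TPM, computed here from the counts and exon lengths), the highest of these were NDUFS5 (450 TPM), NDUFA1 (283), NDUFA8 (240), COX6B1 (221), NDUFB4 (132), NDUFB10 (120), ATP5PF (120) and NDUFB6 (92.1). For comparison, ATP5F1B stood at 1107 TPM and COX5B at 163 TPM. NDUFS5 had 1919 counts in the FL library, more than COX5B with 1600, and COX6B1 had 2191, more than NDUFS8 with 2149. The 8 genes are small accessory subunits of complex I, the intermembrane-space subunit COX6B1 and the peripheral stalk subunit ATP5PF. NDUFS5, COX6B1 and NDUFB4 have 6, 7 and 12 pseudogenes named after them, and the others of the 8 have 0 to 2. Whether reads shared with pseudogenes cost these genes peaks was not tested. Across the 63 genes of at least 10 CPM the Spearman rank correlation (rho) between summed score and input counts, in the order FL, ΔNTR and ΔCTR, was 0.307, 0.380 and 0.366, against 0.575, 0.614 and 0.614 across all 9096 genes. These are descriptions across genes of 1 library each, with many genes at a score of 0.

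The peaks of the set lay mainly in coding sequence. Of the 48 FL peaks 41 (85.4%, 72.8 to 92.8%) were centred in CDS, 5 (10.4%, 4.53 to 22.2%) in 3'UTRs and 2 in 5'UTRs. Of all 13603 FL peaks in protein-coding genes of at least 10 CPM, 38% were in CDS and 49.7% in 3'UTRs. In ΔNTR the set had 66.2% of 68 peaks in CDS (54.3 to 76.3%) and 19.1% in 3'UTRs, against 38.3% and 51.6% for all genes. In ΔCTR it had 66.1% of 56 peaks in CDS (53.0 to 77.1%) and 28.6% in 3'UTRs, against 38.7% and 52.9%. Without ATP5F1A and ATP5F1B 82.9% of FL peaks were in CDS (67.3 to 91.9%). For ΔNTR this was 54.3% (40.2 to 67.8%), and for ΔCTR it was 56.1% (41.0 to 70.1%). The CDS interval of the set lay above the value of all genes in each list, but without the pair only narrowly so in ΔNTR and ΔCTR. Peaks of 1 mRNA, such as the 5, 7 and 3 of UQCRC1 in FL, ΔNTR and ΔCTR, were counted as separate, so these intervals are too narrow.

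The canonical mRNAs of the 63 genes had a median 5'UTR of 59 nt, CDS of 408 nt and 3'UTR of 195 nt, against 138, 1470 and 1523 nt for all 9096 genes. Over the summed bases, in which a few long 3'UTRs weigh most, CDS made up 31.5% of the set and 44.8% of all genes. The CDS share held at both lengths in FL: it was 85.7% in subunit mRNAs under 1000 nt, against 59.1% in all mRNAs of that length, and 85.2% against 37.4% in longer ones. In ΔNTR the short ones had 59.1% against 53.4% and the longer ones 69.6% against 37.9%, and in ΔCTR 60.0% against 55.5% and 71.0% against 38.3%. A CDS position was taken first where transcripts of a gene differed.

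**Figure D3:**
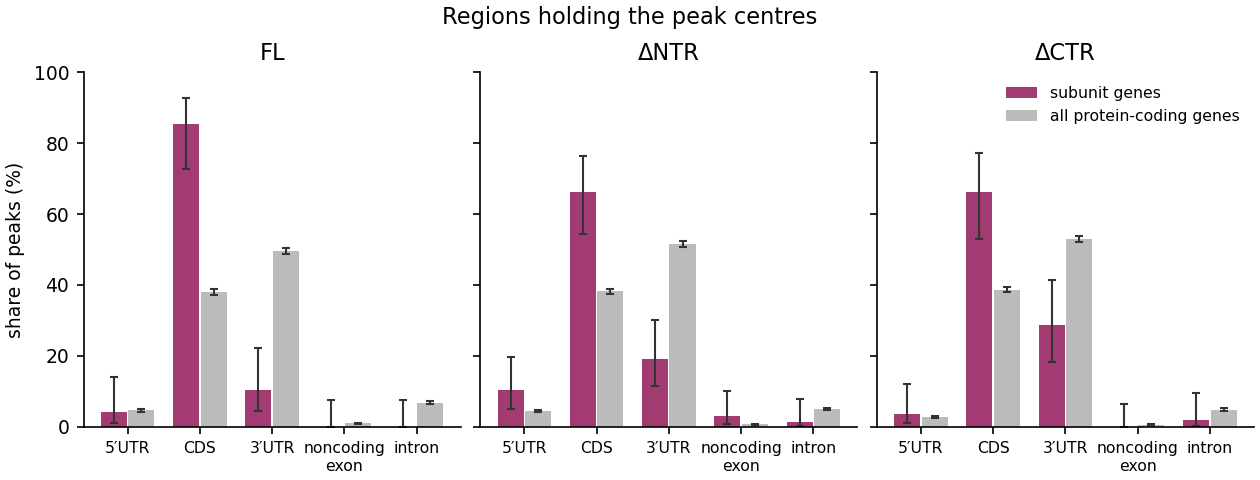
Share of peaks (%) centred in each region for the 85 subunit genes (purple) and all protein-coding genes of at least 10 CPM (grey) in FL, ΔNTR and ΔCTR; bars start at 0 and error bars are 95% Wilson intervals for counting error. CDS holds 85.4% of the FL peaks of the subunit genes and 38% of those of all genes.

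Of the 3'UTR peaks of the set that lay on the canonical mRNA, 4 of 5 in FL, 7 of 13 in ΔNTR and 9 of 15 in ΔCTR were within 100 nt of the last coding base. For all genes of at least 10 CPM this was 6.96%, 7.04% and 6.36%, but 43.9%, 48.6% and 43.1% for mRNAs under 1000 nt, where the set had 2 of 2, 3 of 4 and 4 of 6. In longer mRNAs the set had 2 of 3, 4 of 9 and 5 of 9, against 6.50%, 6.48% and 5.81% of all genes. These counts are small, and the length of the 3'UTR was not matched. Besides ATP5F1B and ATP5PB, NDUFA4 had a site 12 nt past the last coding base (0, 6 and 7), ATP5MK one at 14 nt (0, 3 and 3) and UQCRH, the hinge protein of complex III, one at 24 nt (0, 0 and 5).

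At the other end of the coding sequence, peaks centred within 25 nt of the start codon made up 8 of 48 FL peaks (16.7%, 8.70 to 29.6%), against 1.47% of FL peaks on the mRNAs of all protein-coding genes. They were in ATP5F1B, ATP5MK, COX5B, NDUFA10, NDUFA2, NDUFB2, NDUFS8 and UQCRC1, with 1 peak each. In ΔNTR the share was 7 of 64 (10.9%, 5.40 to 20.9%) against 1.36%, and in ΔCTR 2 of 54 (3.70%, 1.02 to 12.5%) against 0.946%. This stretch is a larger part of a short mRNA: it made up 6.68% of the median subunit mRNA and 1.37% of the median mRNA of all genes. Within mRNAs under 1000 nt the shares were 23.8% for the set and 8.70% for all genes in FL, 25% and 9.95% in ΔNTR, and 8.70% and 6.96% in ΔCTR. The distance of 25 nt was chosen after the positions had been seen.

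The start of the mRNA was examined because LARP6 is known to bind 5' terminal sequences of mRNAs. The study reports LARP6 sites at the 5' terminal oligopyrimidine sequences of ribosomal protein mRNAs, besides the site in the 5'UTR of type I collagen mRNA. A peak within 50 nt of an annotated start of a protein-coding transcript, called cap-proximal here, was present in 8 subunit genes with FL (12.7% of those of at least 10 CPM), 11 with ΔNTR (17.5%) and 5 with ΔCTR (7.94%). Among all genes of at least 10 CPM the corresponding shares were 4.67%, 5.00% and 3.90%. Here too length mattered. Among mRNAs under 1000 nt the set had 10.5%, 18.4% and 10.5%, against 11.8%, 13.2% and 10.3% of all genes of that length. Among longer mRNAs it had 16.0%, 16.0% and 4.00%, against 4.29%, 4.57% and 3.56%, from 4, 4 and 1 of 25 genes. With the start of the canonical transcript alone the counts were 5, 9 and 3, or 7.94%, 14.3% and 4.76%, against 2.51%, 2.73% and 1.86% of all genes.

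Over the 3 lists 16 genes had such a peak, most with the minimum score of 3. COX5B had one in all 3 lists, as had ATP5F1B and ATP5F1D. In ATP5F1D, COX7A2, COX7C and UQCRB these lay near annotated alternative starts alone, as did the ΔCTR peak of ATP5F1B, and the other 12 genes had one within 50 nt of the canonical start. NDUFB2 had one in FL and ΔNTR, and NDUFS8 in ΔNTR and ΔCTR. COX7C, NDUFA10, UQCRB and UQCRC1 were in FL alone, ATP5F1A, ATP5F1E, ATP5MK, COX7A2, NDUFAB1 and UQCRC2 in ΔNTR alone, and NDUFS6 in ΔCTR alone. In several of these the 30 nt around the peak centre held the start codon of the canonical mRNA, which is in capitals in the following windows (same build and orientation), shown because the cap-proximal stretch and the start codon fall together in these short 5'UTRs.
COX5B, chr2:97646081-97646110, plus strand: gacgcaATGgcttcaaggttacttcgcgga
COX7A2, chr6:75243726-75243755, minus strand: tgctggtcagtaacagccaagATGctgcgg
NDUFA10, chr2:240025290-240025319, minus strand: tgagctgaccgggtagccATGgccttgcgg
NDUFB2, chr7:140696730-140696759, plus strand: cggacgggagcgagtATGtccgctctgact
NDUFS6, chr5:1801405-1801434, plus strand: ccagcggcgcaaaATGgcggcggcgatgac
UQCRC1, chr3:48609597-48609626, minus strand: tggaagATGgcggcgtccgtggtctgtcgg

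A 5' terminal oligopyrimidine start, here a C followed by at least 4 pyrimidines at the annotated start of the canonical mRNA, was present in 8 of the 63 genes (12.7%, 6.58 to 23.1%), against 5.85% of all 9096. These were ATP5F1E, ATP5MC2, COX4I1, COX7A2L, COX7C, NDUFB5, UQCRB and UQCRH. Of the 12 genes with a peak within 50 nt of the canonical start, ATP5F1E alone had such a start. Its peak was in ΔNTR alone, with the minimum score of 3. It was centred 44 nt from the canonical start and did not reach the 20 nt printed below. COX7C and UQCRB had such a start too, but their peaks lay 68 and 86 nt from it. The first 20 nt of the ATP5F1E mRNA and of 4 mRNAs with such a start but no peak within 50 nt of it are shown for comparison, with the leading pyrimidines in capitals.
ATP5F1E, peak within 50 nt, chr20:59032316-59032335, minus strand: CTTCCTgcggctgaaccgcc
COX7C, no such peak, chr5:86617941-86617960, plus strand: CTTTTCagtccttgcgcacc
COX4I1, no such peak, chr16:85799695-85799714, plus strand: CTCTTCCggtcgcgggacac
ATP5MC2, no such peak, chr12:53676064-53676083, minus strand: CCCCTCTCTgtcttctctgc
UQCRH, no such peak, chr1:46303698-46303717, plus strand: CTTCTTgatcctgaactggg

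Most sites of the set were in 1 list, and over all peaks the overlap between lists was near that of all protein-coding genes. Sites were counted for the set alone. Strong sites were not always shared: one in NDUFS8 had scores of 12, 0 and 8 in FL, ΔNTR and ΔCTR. Merged over FL, ΔNTR and ΔCTR, the peaks formed 125 sites, of which 95 were in 1 list (25 in FL, 40 in ΔNTR and 30 in ΔCTR), 17 in 2 and 13 in all 3. The 13 lay in 7 genes: ATP5F1A (4), ATP5F1B (3), COX5B (2), and ATP5F1D, ATP5PB, NDUFA2 and UQCRC1 (1 each). Of the 48 FL peaks, 18 (37.5%, 25.2 to 51.6%) overlapped a ΔNTR peak and 19 (39.6%, 27.0 to 53.7%) a ΔCTR peak, against 35.2% and 37.7% over all protein-coding genes. With peaks above a score of 3 in both lists, 63.2% (41.0 to 80.9%) and 68.4% (46.0 to 84.6%) of 19 FL peaks overlapped, against 45.6% and 51.2%. All 4 of these intervals held the value of all genes, and both comparisons share the FL list.

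To compare the forms of LARP6 at equal input, the share of the list score in a gene was divided by its input CPM in the same line, where the scores of a gene in both lists added up to 10 or more. For ΔNTR against FL, 11 subunit genes could be compared, with a median log2 ratio of 0.49, against 0.01 for 2728 genes. The median was 0.22 where the scores had to add up to 20 or to 50. Of the 11 genes, 4 were at least 2-fold higher (NDUFV1, 3.45; ATP5PB, 1.44; NDUFS7, 1.05; ATP5F1D, 1.04) and 1 at least 2-fold lower (NDUFA2, -1.25), where 18.6% of all genes compared were higher and 19.3% lower. For ΔCTR against FL, 13 genes had a median of -0.02, against 0.04 for 2924 genes. Here 2, both without an FL score, were at least 2-fold higher (ATP5F1C, 3.57; NDUFA5, 3.32) and 3 lower (ATP5MC2, -1.57; UQCRC1, -1.35; COX5B, -1.07). NDUFS8 lay just short of the limit on the lower side. Over all genes compared, 16.4% were higher and 14.7% lower.

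NDUFV1 (0 against 10), ATP5F1C (0 against 13) and NDUFA5 (0 against 11) had no FL score and entered the comparison only through the deletion list. That they were higher there was fixed by the minimum score, and their ratios depend on the pseudocount of 1. With an FL score of 3, NDUFS7 and NDUFB2 (8 each in ΔNTR) and ATP5MK (7 in ΔCTR) likewise needed a higher score there to be compared. The medians and the counts past 2-fold include genes chosen in this way and are not a result about the set. NDUFA2, with 15 against 6, also had low scores. ATP5F1B, with the highest scores, stood at 0.03 for ΔNTR and -0.02 for ΔCTR, and ATP5F1A at 0.40 and 0.54. The level gene total of ATP5F1B in ΔNTR combined a lower dominant site (95 in FL and 54 in ΔNTR, -0.65 after the same scaling) with higher scores in the rest of the gene (24 and 55, 1.32). In ΔCTR the site stood at -0.18 and the rest at 0.44.

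The input RNA itself was similar in the 6 lines. On the log2(CPM + 1) scale no subunit gene of at least 10 CPM differed from parental cells by 1.5-fold in any line. Among all 9096 genes the FL line had 0.253% past 1.5-fold upwards and 0.0660% downwards. For ΔNTR it was 2.83% upwards with 0.418% downwards, for ΔCTR 0.352% with 0.132%, for ΔLa-module 1.20% with 0.462%, and for ΔNTD 1.01% with 0.440%. A count of 0 among 63 genes is close to such shares. The medians of the 63 genes were -0.07 (FL), -0.08 (ΔNTR), -0.07 (ΔCTR), -0.10 (ΔLa-module) and -0.13 (ΔNTD), against 0.00 for all genes. The number of genes below 0 was 55, 45, 49, 50 and 57 of 63, where 50.3%, 50.8%, 50.3%, 50.7% and 49.9% of all 9096 genes were. All 5 comparisons share the 1 parental library, so the common direction is not 5 separate observations.

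The 9 complex IV genes of at least 10 CPM were below parental cells in every line, with medians of -0.16, -0.12, -0.16, -0.16 and -0.20 in the order above, and the 32 complex I genes had medians of -0.05 to -0.11. The lowest single values were in NDUFA1 and NDUFB4, accessory subunits of the complex I membrane arm. NDUFA1 was at 38.6 CPM in parental cells and 30.7, 31.8, 32.6, 29.9 and 29.6 CPM in FL, ΔNTR, ΔCTR, ΔLa-module and ΔNTD. NDUFB4 had 78.6 CPM in parental cells and 61.8, 61.0, 66.8, 65.4 and 68.4 CPM. Both were highest in parental cells, and neither had a peak. The highest values were in NDUFB2 (0.32 in ΔNTR), ATP5F1D (0.30 in ΔLa-module) and NDUFC1 (0.27 in ΔNTR). With 1 library per line, a difference between lines and one between libraries cannot be told apart, nor can fewer cells with an mRNA and less of it per cell.

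**Figure D4:**
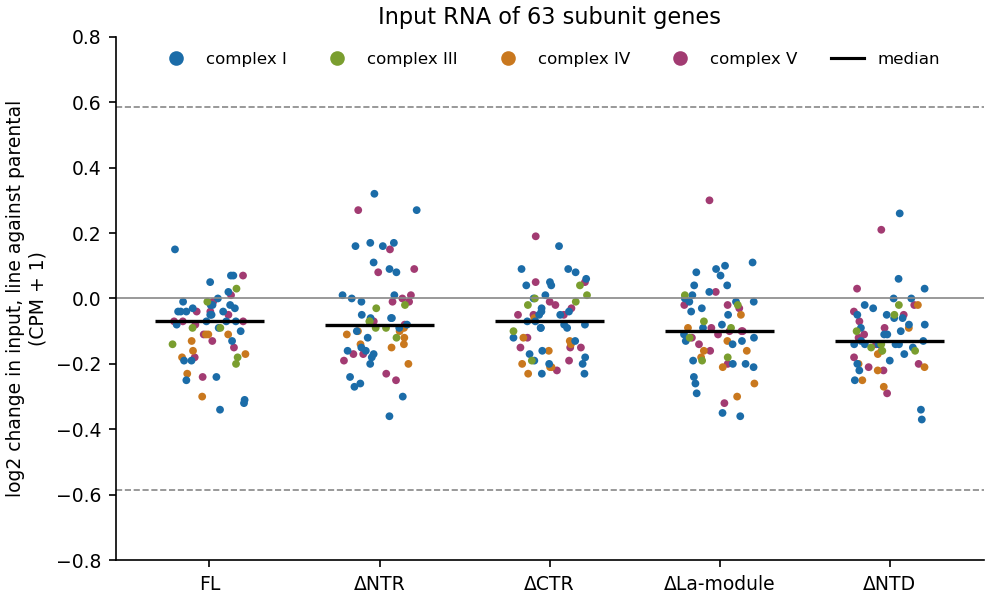
Difference in input RNA from parental cells on the log2(CPM + 1) scale for the 63 subunit genes of at least 10 CPM in each induced line, 1 point per gene coloured by complex, with the median as a black bar and dashed lines at 1.5-fold. Every point lies between the dashed lines, and the medians lie between -0.13 and -0.07.

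Other genes of the pathway were set beside the subunits. Of complex II, the electron carriers and the ATPase inhibitor, 3, 3 and 4 of 7 genes had a peak in FL, ΔNTR and ΔCTR, led by CYCS, the mobile carrier cytochrome c, with scores of 18, 20 and 34. Of 33 assembly factor genes 11, 11 and 12 had one. Of the 13 subunits encoded by the mitochondrial genome 12 had a peak in each of these 3 lists, and also 12 in ΔLa-module and 5 in ΔNTD. These 13 genes held 2.47% of the FL input counts, against 0.541% for the 85 nuclear genes, so the groups were not compared at equal level. At 10 CPM or more, the share of genes with an FL peak was 38.1% for the nuclear-encoded subunits, 31.3% for mitochondrial ribosomal proteins, 71.9% for proteasome subunits and 63.3% for cytosolic ribosomal proteins. In ΔNTR these shares were 47.6%, 32.8%, 56.2% and 67.1%, and in ΔCTR 41.3%, 34.3%, 78.1% and 67.1%. The subunits lay between the mitochondrial ribosomal proteins and the other 2 groups in each list, and these differences were not tested.

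Reads from pseudogenes could be confused with those of the subunits, since 46 of the 85 genes have a pseudogene named after them, 174 in all. No peak of any list was centred in one of these 174. This cannot show iCLIP reads lost because they fit both a subunit gene and a pseudogene, which was not tested. A peak in FL, ΔNTR or ΔCTR was held by 5 of 14 genes with 5 or more pseudogenes. It was held by 21 of 32 genes with 1 to 4 and by 18 of 39 with none. Of these 3 groups, 12, 29 and 22 genes had at least 10 CPM. No peak of the set lay in a second protein-coding gene or over a small RNA gene. Reads that mapped to several places were 5.69 to 6.59% of the input reads and are in no gene's count, and their part in the low values of single genes was not tested.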

How the data were processed

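The peak score of each list is used as deposited by the authors. Per the study's methods, the authors trimmed iCLIP reads, removed rRNA and tRNA reads with Bowtie2, aligned the rest with STAR to GRCh38.p13 (GENCODE V42), removed duplicates with UMI-tools, called peaks in each of 3 replicates with Clippy, merged them and summed their scores with bedtools 2.30.0, and subtracted parental peaks. Subtraction removes parental peaks whatever their height, and iCLIP sequencing depth is unknown here. The input counts are the authors' STAR 2.7.10b counts per gene, reverse strand, from 150 nt paired reads trimmed with Trim Galore 0.6.10. The 6 libraries of 50 nt reads (small RNA) were not used here.

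Of 62703 gene identifiers in the count tables, 62625 matched GENCODE release 44, used here for genes, transcripts and regions. A peak belonged to a gene when its centre lay in it on the same strand, and regions were taken in the order CDS, 5'UTR, 3'UTR, other exon, intron. Distances run along the canonical mRNA. TMM factors (edgeR 4.0.16) scaled the counts, with DESeq2 1.42.0 size factors as an alternative, a pseudocount of 1 and a minimum mean of 10 CPM. TPM used the exon bases of all transcripts of a gene, so it is lower for genes with long unused exons. With 1 list or library per line no test was possible. Assignment and scaling were tested on simulated data. Python 3.11.15 and R 4.3.3 were used. Samples were grouped by the labels alone. Input reads carry no stated molecular identifiers, so intervals are minimum errors.

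Named genes were those with the highest summed scores in each complex (8, 4, 6 and 6 for complexes I, III, IV and V, if at least 10), all with cap-proximal peaks, the 8 most abundant without a peak, those past a fold limit, and 8 tissue-restricted or alternative isoforms. Sites, genes and sequences named beyond these, the split of mRNAs at 1000 nt in the position readouts and the distances from the start codon and the last coding base were chosen after values had been seen. The genes, lists and limits were chosen with earlier results of these data known.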

Additional observations from a re-analysis of the deposited data

How the results depend on the processing

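No paired analysis was possible because each peak list pools its replicates without their numbers and each line had 1 input library. Leaving out single replicates was likewise not possible. Across 29 results and 116 recomputed values, 97 stayed within the limits set for each and 19 moved. Requiring a score above 3 left 9 genes with a peak in FL, 14 in ΔNTR and 19 in ΔCTR, which changed the order of the lists (24, 30 and 26 with all peaks), and a score of at least 10 left 5, 3 and 4 in FL, ΔNTR and ΔCTR. Cap-proximal genes in FL were 3 within 25 nt, 5 with the canonical transcript alone and 4 above a score of 3. In ΔNTR they were 6 above a score of 3, and in ΔCTR 3 with the canonical transcript and 2 above a score of 3. Above a score of 3, the 3'UTR share in ΔNTR was 11.1%, and 63.2% and 68.4% of FL peaks overlapped ΔNTR and ΔCTR peaks. The median score per 1000 counts was 0 over 71 genes and 2.58 without genes at 0. With total counts for scaling, the input medians were -0.11 in ΔNTR and -0.14 in ΔNTD. Without the minimum of 10 CPM, 1 gene passed 1.5-fold in ΔNTR (COX8A, 0.76) and 1 in ΔLa-module (NDUFA7, 0.75), both at low counts. The median score ratio of ΔNTR to FL was 0.22 with genes of at least 20 or 50 score units, against 0.49. That of ΔCTR to FL was 0.26 with genes of at least 50 score units, the opposite sign to -0.02. The cause was not tested in any of these.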
